A study of Mus musculus with 9 samples.

Results

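The Skint genes, Skint1 to Skint10, were taken from the count table by their symbols, which gave 10 of its 54456 genes. All 10 passed the filter on low counts, which kept 26081 genes for testing. Skint1 is the founding member of the family: it encodes a membrane protein with immunoglobulin-like domains, related to the butyrophilins, that is made by thymic epithelial cells and keratinocytes. Mice that lack a working Skint1 do not form the normal set of dendritic epidermal T cells, the gamma-delta T cells that mature in the fetal thymus and then live in the epidermis. Skint2, also catalogued as B7S3, has been described in mice as an inhibitor of T cell activation, and the roles of most of the others are less well known.

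The libraries were made from polyadenylated RNA of mouse skin, from lesions resembling alopecia areata, an autoimmune hair loss. 3 libraries came from lesions treated with microneedles loaded with IL-2, a T cell growth factor, and CCL22, a chemokine that attracts regulatory T cells. 3 libraries came from lesions treated with empty microneedles, and 3 from untreated lesions. The labels used here name no mouse strain, age, sex or time of sampling, do not say how the lesions arose, and include no healthy skin. Whether each library is a different animal is not said either, so p-values measure the spread between libraries, which may be technical. Since whole skin was sequenced, fewer keratinocytes and less Skint RNA per keratinocyte cannot be told apart.

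The libraries held between 85962714 and 96740589 counts, of which the Skint genes took between 0.0202% and 0.0317%. Keratinocyte markers were abundant in every library: Krt5 and Krt14 of the basal layer, and Krt1 and Krt10 of the layers above it, had group means between 3581 and 22077 CPM (counts scaled to the size of the library, with TMM factors). Of the markers of thymic epithelium, the other place where Skint1 acts, Aire was at 0.187 to 0.297 CPM, and Psmb11 had 29 counts over all 9 libraries and was not tested. The other 2 listed markers were present: Ccl25 averaged 11.2 CPM in loaded, 10.2 CPM in empty and 8.98 CPM in untreated skin, and Prss16 averaged 1.03 CPM in loaded, 1.35 CPM in empty and 1.38 CPM in untreated skin. Libraries of the same group differed by 1.97 to 4.40 times counting noise, and libraries of different groups by 14.7 to 36.5 times. Mitochondrial genes took 3.78% to 3.90% of counts in loaded libraries, 3.31% to 3.42% in empty libraries and 4.56% to 4.72% in untreated libraries, and the part of this in the results was not tested.

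The 10 genes lie together on chromosome 4. In mm39, the build of the counts, the cluster began with Skint8 (chr4:111776589-111807555, plus strand), Skint7 (chr4:111830120-111845420, plus strand) and Skint1 (chr4:111863466-111886735, plus strand). Skint4 (chr4:111929213-112025273, plus strand), Skint3 (chr4:112089442-112157665, plus strand), Skint9 (chr4:112243166-112291182, minus strand) and Skint2 (chr4:112414391-112509445, plus strand) followed. The minus-strand genes Skint10 (chr4:112568344-112632063), Skint6 (chr4:112661813-113144170) and Skint5 (chr4:113335088-113856700) closed it. The spans of the 10 genes did not overlap each other. Skint2 overlapped 2 other genes over 28.0% of its span, and no count was assigned to those genes. How reads in overlapping spans were treated is not given in the sources used here, so whether Skint2 lost counts there cannot be told. The overlaps of Skint4 and Skint6 covered 0.497% and 5.01% of their spans.

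Several members are near copies, and this bears on how their counts can be read. In the GENCODE transcripts, the coding sequences of Skint7 and Skint8 were 91.6% identical over 1184 aligned bases, those of Skint5 and Skint6 were 89.4% identical over 3718, and those of Skint9 and Skint10 were 86.9% identical over 955. These were the 3 closest of the 45 pairs. A 50-base window identical to one in another gene made up 16.3% of the windows in Skint8 transcripts and 11.5% in Skint7, against 5.09% in Skint6, 4.05% in Skint5, 2.11% in Skint2 and under 1% in the other members. Windows of 100 bases were shared with another gene by 9.03% of those in Skint8 and 5.79% of those in Skint7, and by 0% in each of the other 8 genes. How reads that match more than 1 gene were treated is not given in the sources used here, so the division of counts between Skint7 and Skint8 is uncertain. Only transcripts were compared, although reads in introns were also counted. Likeness between the introns of the members was not examined, so the division of counts may be uncertain in other members too.

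**Figure D1:**
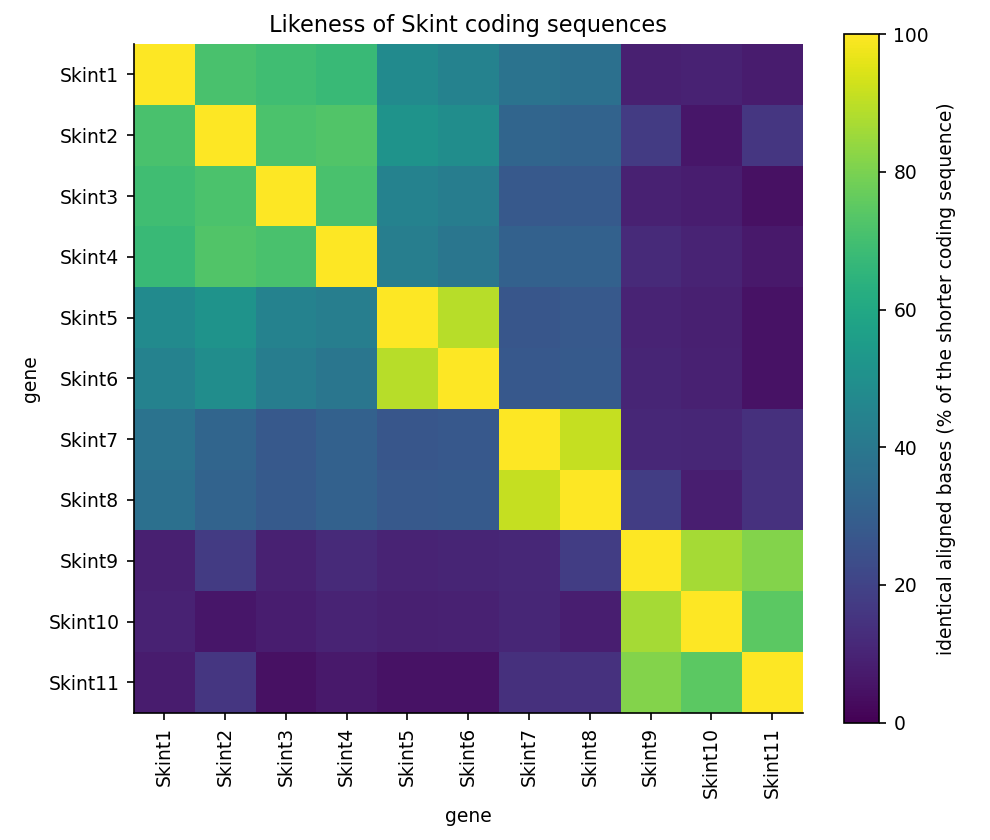
Heat map of the likeness of Skint coding sequences, with the genes, Skint11 included, on both axes; colour gives identical aligned bases as a percent of the shorter coding sequence. Skint7 with Skint8 is highest at 91.2%, followed by Skint5 with Skint6 at 89.3% and Skint9 with Skint10 at 86.5%.

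The likeness of the closest pairs extends into the sequence before the gene start, which is shown for the pairs whose counts are compared below. The sequences are the 250 bases before the RefSeq start, read in the direction of the gene, from GRCm38.p6, an older build than that of the counts, at chr4:111972677-111972926 (plus) for Skint7, chr4:111919305-111919554 (plus) for Skint8, chr4:113999504-113999753 (minus) for Skint5 and chr4:113286974-113287223 (minus) for Skint6. Capitals mark the longest run that a gene shares letter for letter with its close copy.
Skint7: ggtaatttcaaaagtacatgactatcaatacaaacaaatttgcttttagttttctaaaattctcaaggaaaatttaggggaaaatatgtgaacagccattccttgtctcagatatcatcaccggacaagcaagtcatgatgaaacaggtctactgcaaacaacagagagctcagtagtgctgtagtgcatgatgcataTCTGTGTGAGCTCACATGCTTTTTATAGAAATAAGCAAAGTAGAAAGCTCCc
Skint8: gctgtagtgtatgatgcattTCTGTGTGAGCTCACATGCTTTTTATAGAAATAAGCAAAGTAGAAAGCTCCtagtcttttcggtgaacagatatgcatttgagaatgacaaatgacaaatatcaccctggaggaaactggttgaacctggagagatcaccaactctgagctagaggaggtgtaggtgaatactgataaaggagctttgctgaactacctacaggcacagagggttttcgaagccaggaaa
Skint5: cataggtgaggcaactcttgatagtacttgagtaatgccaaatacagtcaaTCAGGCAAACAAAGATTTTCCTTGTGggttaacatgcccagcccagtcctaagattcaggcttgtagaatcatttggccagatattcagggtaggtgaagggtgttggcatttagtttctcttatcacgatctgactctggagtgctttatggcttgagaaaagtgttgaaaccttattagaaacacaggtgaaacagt
Skint6: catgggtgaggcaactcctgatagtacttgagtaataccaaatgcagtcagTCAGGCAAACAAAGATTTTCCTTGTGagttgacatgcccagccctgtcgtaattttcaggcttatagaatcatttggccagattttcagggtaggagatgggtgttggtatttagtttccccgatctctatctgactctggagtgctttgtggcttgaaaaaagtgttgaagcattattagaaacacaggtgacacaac
Skint7 and Skint8 shared a run of 51 bases, which began at position -52 in Skint7 and at -230 in Skint8, where -1 is the base before the annotated start. The best local alignment of the pair covered 71 bases, with 97.2% identity. The run lies at the end of the Skint7 window and near the start of the Skint8 window, so little beyond that alignment could be compared. Skint5 and Skint6 were alike over nearly the whole window, with 89.5% identity over 248 aligned bases, and their longest identical run was 26 bases, at -199 in both.

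3 short motifs were searched on both strands in the same 250-base windows of all 32851 RefSeq promoters in the table. The STAT motif TTCNNNGAA was present in 7.02% of all promoters and in 1 of the 10 Skint genes, Skint8, at position -172. This match lies after the run shared with Skint7. In Skint7 that run ends next to the annotated start, so the bases at the matching place lay outside the window and were not searched. The AP-1 motif TGANTCA was present in 6.75% of all promoters and in 0 of the 10. The letters TATAAA were present in 12.4% of all promoters and in 6 of the 10: Skint1, Skint2, Skint4, Skint7, Skint8 and Skint9. Only the Skint1 match, at -40, read in the direction of the gene, and the others were on the opposite strand. The matches in Skint7 (-31) and Skint8 (-209) are the same letters of their shared run, so they are not separate occurrences. A match is a description of these letters, not a binding site.

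Summed over the 10 genes, Skint expression was lowest in loaded-microneedle skin and highest in untreated skin. The sums were 196, 194 and 211 CPM in the loaded libraries, 267, 262 and 270.0 CPM in the empty libraries, and 341, 309 and 314 CPM in the untreated libraries. The groups did not overlap in this sum, which does not depend on how reads were divided between close copies. The mean was 200.4 ± 9.03 CPM in loaded skin, 266 ± 4.07 CPM in empty-microneedle skin and 321 ± 17.3 CPM in untreated skin (SD, n = 3 each). The loaded mean was 0.624 times the untreated one (log2 ratio -0.68) and 0.752 times the empty one (log2 ratio -0.41). The empty mean was 0.829 times the untreated one (log2 ratio -0.27), with a log2 ratio of -0.17 where counts were scaled by library size alone.

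**Figure D2:**
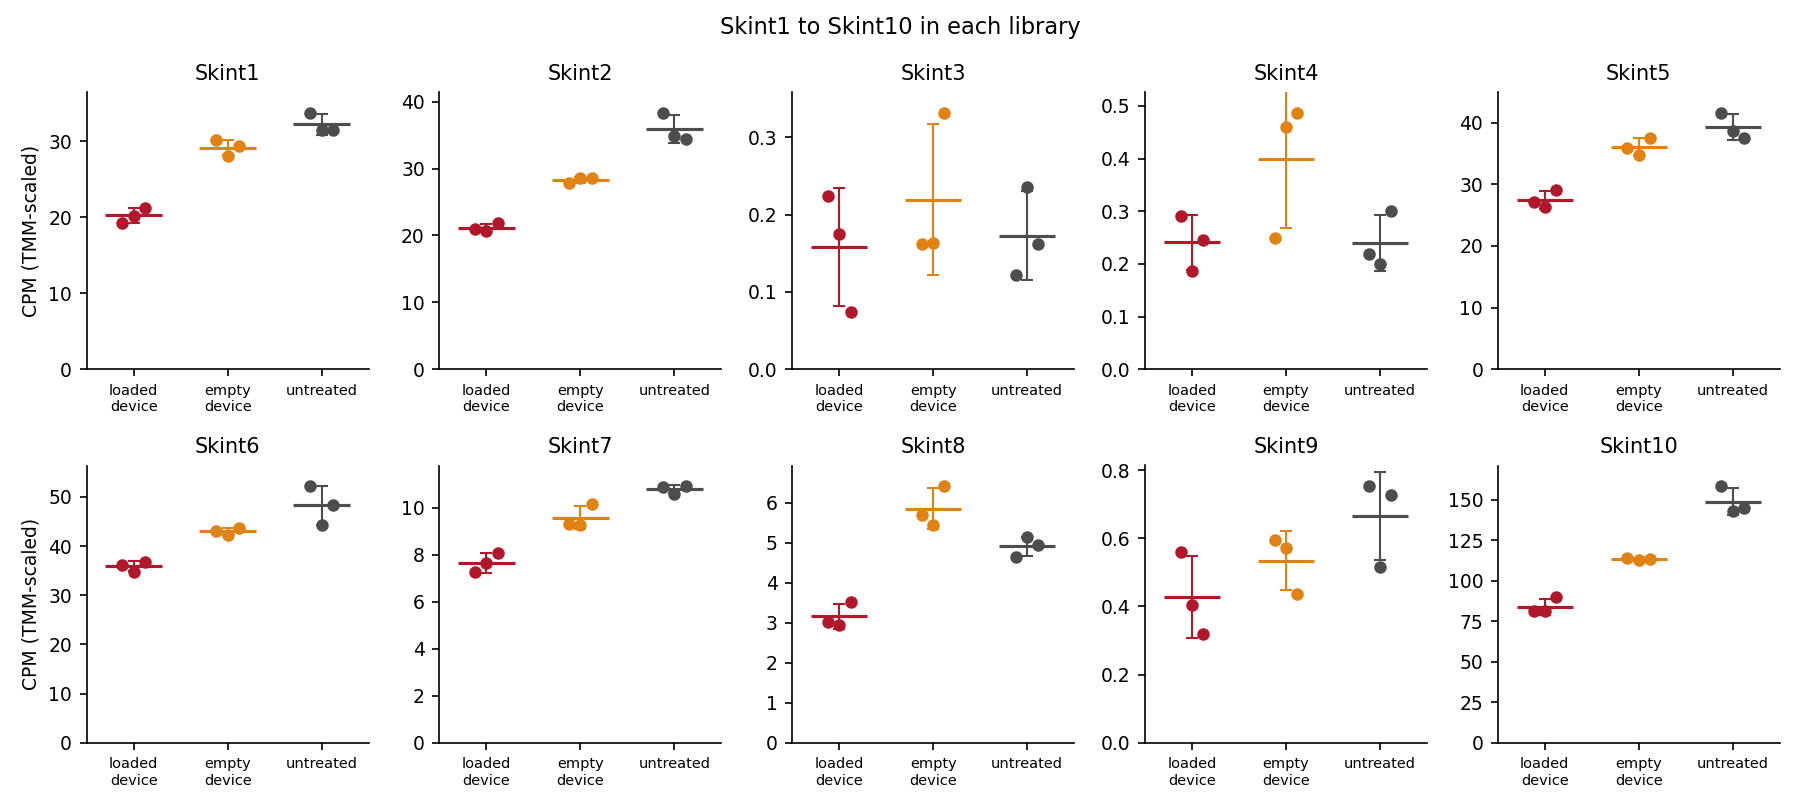
CPM of each Skint gene in each library, with loaded, empty and untreated groups from left to right; points are libraries, horizontal lines group means and vertical bars SD. Skint10 is the most abundant (81.1 to 158 CPM), Skint8 is highest in empty-microneedle skin, and Skint3, Skint4 and Skint9 stay under 1 CPM.

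Of the 10 genes, 8 were lower in loaded than in untreated skin (edgeR quasi-likelihood test, Benjamini-Hochberg adjusted p under 0.05 over all tested genes) and 0 were higher, where 23.3% of all tested genes were lower and 19.0% higher (42.3% either way). Against empty microneedles, 8 were again lower in loaded skin and 0 higher, where 18.5% of all tested genes were lower and 22.9% higher (41.4% either way). Between empty and untreated skin, 6 were lower and 2 higher in empty skin, where 28.1% of all tested genes were lower and 20.2% higher (48.3% either way). That last count was 2 lower and 2 higher with scaling by library size alone. The median log2 fold change of the 10 genes was -0.57 for loaded against untreated, -0.43 for loaded against empty and -0.16 for empty against untreated skin, while the median over all tested genes was -0.014, 0.015 and -0.016 in the same comparisons. Each group serves in 2 of these comparisons, so their results are not independent. In 7 of the 10 genes every loaded library was below every untreated one, where 28.1% of all tested genes were so, and no member was above without overlap, where 24.6% were. The same 7 were below every empty library, where 22.7% of all tested genes were so and 28.1% were above: Skint1, Skint2, Skint5, Skint6, Skint7, Skint8 and Skint10.

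**Figure D3:**
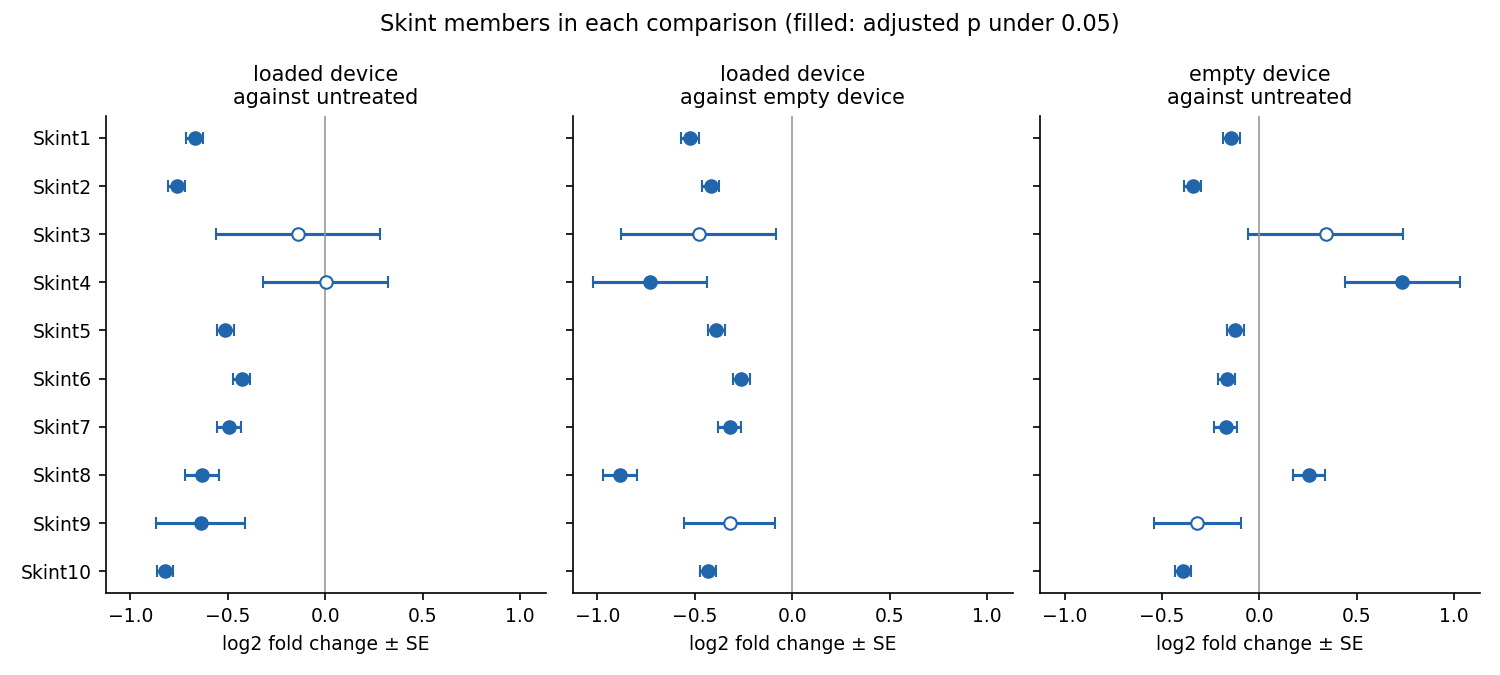
Log2 fold change of each Skint gene in the 3 comparisons, with bars of 1 SE from edgeR and filled points for an adjusted p under 0.05. 9 genes lie below 0 in both comparisons of loaded skin, of which 7 passed the test in both. Skint3, Skint4 and Skint8 lie above 0 in empty against untreated skin, where Skint4 and Skint8 passed. The rarely counted Skint3, Skint4 and Skint9 have wide bars.

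Skint1, the selecting factor of epidermal T cells, was present at 19.3, 20.2 and 21.3 CPM in loaded libraries, 30.1, 28.1 and 29.4 CPM in empty libraries, and 33.8, 31.5 and 31.5 CPM in untreated libraries. Each loaded library was below every library of the other groups, and each empty library was below every untreated one. Skint1 fell in loaded against untreated skin by 0.67 on the log2 scale (SE 0.044, adjusted p = 9.69e-13) and in loaded against empty skin by 0.53 (SE 0.044, adjusted p = 7.37e-11). Its difference between empty and untreated skin was smaller, -0.14 (SE 0.043, adjusted p = 0.00652), and that call was lost in 5 of 18 alternative settings, with adjusted p up to 0.471.

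Skint2, the described inhibitor of T cell activation, had 21.0, 20.7 and 21.9 CPM in loaded libraries, 27.8, 28.6 and 28.6 CPM in empty libraries, and 38.4, 34.9 and 34.4 CPM in untreated libraries. The 3 groups did not overlap. Its log2 fold change was -0.76 for loaded against untreated (SE 0.043, adjusted p = 3.84e-14), -0.42 for loaded against empty (SE 0.043, adjusted p = 3.77e-09) and -0.34 for empty against untreated skin (SE 0.042, adjusted p = 6.64e-08).

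Skint10, whose role is not well described, had the most counts of the family. It stood at 81.2, 81.1 and 89.6 CPM in loaded libraries, 114, 112 and 113 CPM in empty libraries, and 158, 143 and 145 CPM in untreated libraries. As with Skint2, the 3 groups were separate, in the order loaded, empty, untreated. Skint10 fell by 0.82 on the log2 scale in loaded against untreated skin (SE 0.041, adjusted p = 9.32e-14), by 0.43 in loaded against empty (SE 0.040, adjusted p = 4.32e-09) and by 0.39 in empty against untreated skin (SE 0.040, adjusted p = 1.31e-08). Skint10 made up 41.9% ± 0.566 of all Skint counts in loaded skin, 42.5% ± 0.541 in empty-microneedle skin and 46.3% ± 0.132 in untreated skin (SD, n = 3 each). Its near copy Skint9 was counted far less, with 50, 37 and 30 counts in loaded libraries, 55, 56 and 42 in empty libraries, and 62, 44 and 63 in untreated libraries. The groups of Skint9 overlapped: its log2 fold change was -0.64 for loaded against untreated skin (SE 0.23, adjusted p = 0.0255), a call that was lost in 5 of 17 alternative settings, and the other comparisons did not pass.

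Skint5 and Skint6 are the long members, with coding sequences of 4428 and 3723 bases. Skint5 had 27.1, 26.3 and 29.1 CPM in loaded libraries, 35.9, 34.7 and 37.5 CPM in empty libraries, and 41.6, 38.6 and 37.5 CPM in untreated libraries. Skint6 had 36.2, 34.7 and 36.7 CPM in loaded libraries, 43.1, 42.3 and 43.6 CPM in empty libraries, and 52.2, 44.2 and 48.4 CPM in untreated libraries. In both genes the loaded libraries lay below all others, and empty and untreated libraries of Skint5 overlapped. Loaded against untreated skin gave -0.51 for Skint5 (SE 0.044, adjusted p = 4.20e-10) and -0.43 for Skint6 (SE 0.045, adjusted p = 4.19e-08). Loaded against empty skin gave -0.39 for Skint5 (adjusted p = 3.68e-08) and -0.26 for Skint6 (adjusted p = 4.06e-05). Empty against untreated skin gave -0.12 for Skint5 (adjusted p = 0.0207) and -0.17 for Skint6 (adjusted p = 0.00289), calls lost in 10 and 2 of 18 alternative settings. Skint5 held 42.8% to 44.2% of the counts of the pair in loaded libraries, 45.1% to 46.3% in empty libraries and 43.7% to 46.6% in untreated libraries. The log2 ratio of Skint5 to Skint6 differed by -0.087 between loaded and untreated skin (exact permutation p = 0.2), by -0.13 between loaded and empty skin (exact permutation p = 0.1) and by 0.042 between empty and untreated skin (exact permutation p = 0.5).

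Skint7 and Skint8, the closest copies, did not follow the same order of groups. Skint7 had 7.24, 7.63 and 8.08 CPM in loaded libraries, 9.29, 9.27 and 10.1 CPM in empty libraries, and 10.9, 10.6 and 10.9 CPM in untreated libraries, the order of Skint1. Skint8 had 3.03, 2.95 and 3.53 CPM in loaded libraries, 5.70, 5.44 and 6.42 CPM in empty libraries, and 4.65, 5.14 and 4.94 CPM in untreated libraries. Skint8 was thus highest in empty-microneedle skin, with no overlap between groups, and it was the only member for which every empty library exceeded every untreated one, where 23.5% of all tested genes did so. Of all tested genes, 31.1% were below in empty skin without overlap, and 5 members were: Skint1, Skint2, Skint6, Skint7 and Skint10.

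Skint7 fell by 0.49 on the log2 scale in loaded against untreated skin (SE 0.061, adjusted p = 1.22e-07), by 0.32 in loaded against empty skin (adjusted p = 6.89e-05) and by 0.17 in empty against untreated skin (adjusted p = 0.0166). The last of these calls was lost in 7 of 18 alternative settings. Skint8 fell by 0.63 in loaded against untreated skin (SE 0.089, adjusted p = 1.08e-06) and by 0.88 in loaded against empty skin (SE 0.086, adjusted p = 1.27e-09). It rose by 0.25 in empty against untreated skin (SE 0.082, adjusted p = 0.0118), a call lost only without untreated replicate 1 (0.21, adjusted p = 0.0550) among the 18 alternatives. Skint8 made up 29.5%, 27.9% and 30.4% of the counts of the pair in loaded libraries, 38.0%, 37.0% and 38.8% in empty libraries, and 30.0%, 32.7% and 31.2% in untreated libraries. The log2 ratio of Skint8 to Skint7 was lower by 0.57 in loaded than in empty skin and higher by 0.43 in empty than in untreated skin, each with p = 0.1 in an exact 2-sided permutation test, the smallest that 3 against 3 libraries allow. Between loaded and untreated skin it differed by -0.14 (exact permutation p = 0.2). Over the 9 such ratios tested for the 3 close pairs, no adjusted p was below 0.3.

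The gene next to Skint8 outside the cluster had the same order of groups. It is Slc5a9, which encodes a sodium-coupled sugar transporter (mm39 chr4:111732572-111760115, minus strand). Slc5a9 had 31.2, 31.3 and 34.2 CPM in loaded libraries, 62.0, 58.0 and 60.8 CPM in empty libraries, and 45.0, 46.1 and 43.8 CPM in untreated libraries. Its log2 fold change was -0.48 for loaded against untreated (SE 0.039, adjusted p = 6.88e-11), -0.90 for loaded against empty (SE 0.039, adjusted p = 1.33e-16) and 0.42 for empty against untreated skin (SE 0.038, adjusted p = 2.24e-10). This order was not particular to the locus. Krt1, on chromosome 15, averaged 5940 CPM in loaded, 12578 CPM in empty and 9397 CPM in untreated skin. Krt10, on chromosome 11, averaged 12040 CPM in loaded, 22077 CPM in empty and 15743 CPM in untreated skin. Krt5 and Krt14 were instead highest in untreated skin. The share of all tested genes with this order was not counted. At the other end of the cluster, the family member Skint11 averaged 12.3 ± 0.603 CPM in loaded, 15.3 ± 0.899 in empty and 23.3 ± 2.33 in untreated skin (SD, n = 3 each). Skint11 fell in all 3 comparisons, by 0.92 in loaded against untreated (adjusted p = 1.27e-10), by 0.32 in loaded against empty (adjusted p = 0.000354) and by 0.60 in empty against untreated skin (adjusted p = 3.31e-08). Of the 10 nearest tested genes outside the cluster, the other 8 varied in their patterns. Spata6 had no detected difference in loaded against untreated skin (0.0044, adjusted p = 0.970) and was lower by 0.24 in loaded than in empty skin (adjusted p = 0.00701). It was higher by 0.24 in empty than in untreated skin (adjusted p = 0.00554), so it was highest in empty-microneedle skin, as were Slc5a9 and Skint8. Gm12960, whose span lies within that of Spata6, was lowest in empty-microneedle skin, at 2.89 CPM in loaded, 2.22 CPM in empty and 3.42 CPM in untreated skin. Trabd2b was higher in loaded than in untreated skin by 0.25 (adjusted p = 0.00131) and than in empty skin by 0.42 (adjusted p = 1.26e-06). Agbl4, Gm12807, 9130410C08Rik, Gm12830 and Foxd2 passed in no comparison. Inside the cluster, the non-member Gm12813 averaged 6.01 CPM in loaded, 8.24 CPM in empty and 11.6 CPM in untreated skin. Gm12813 fell by 0.94 in loaded against untreated (adjusted p = 1.44e-11) and by 0.46 in loaded against empty skin (adjusted p = 6.28e-06). In empty against untreated skin it fell by 0.49 (adjusted p = 7.12e-07). Gm12821, also inside the cluster, passed in no comparison.

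**Figure D4:**
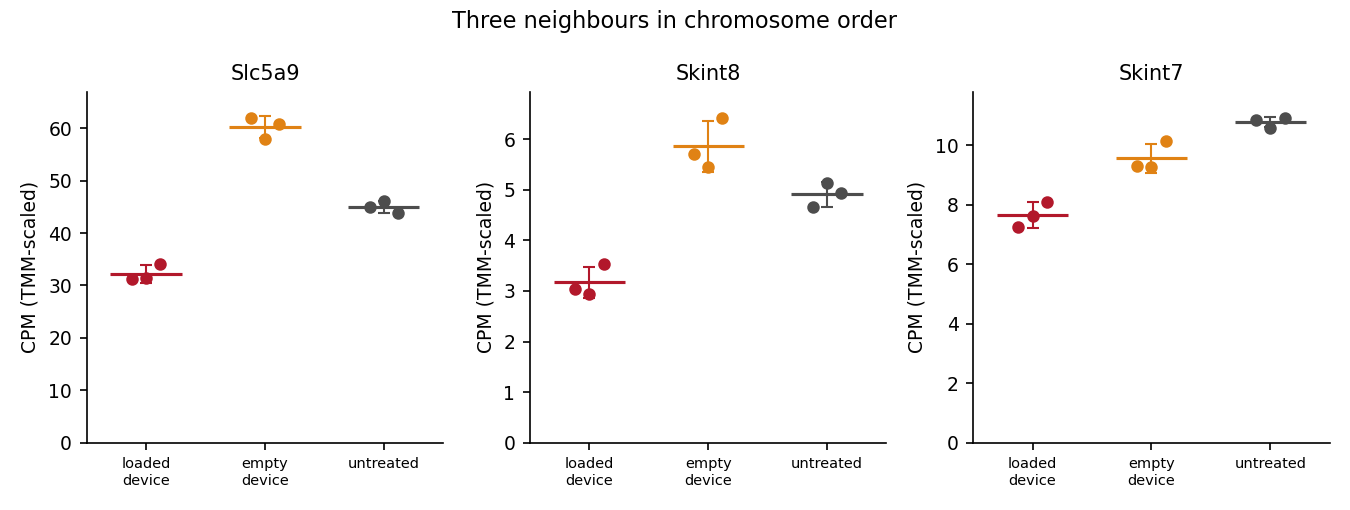
CPM of Slc5a9, Skint8 and Skint7, in chromosome order, in each library; groups run loaded, empty, untreated from left to right. Slc5a9 and Skint8 are highest in empty-microneedle skin (58.0 to 62.0 and 5.44 to 6.42 CPM), and Skint7 is highest in untreated skin (10.6 to 10.9 CPM).

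Skint3 and Skint4 were barely detected. Skint3 had 20, 16 and 7 counts in loaded libraries, 15, 16 and 32 in empty libraries, and 10, 20 and 14 in untreated libraries, and no comparison passed (adjusted p = 0.831, 0.366 and 0.513). Skint4 had 26, 17 and 23 counts in loaded libraries, 23, 45 and 47 in empty libraries, and 18, 17 and 26 in untreated libraries. The groups of both genes overlapped. Skint4 was lower in loaded than in empty skin (-0.73, SE 0.29, adjusted p = 0.0455) and higher in empty than in untreated skin (0.73, SE 0.30, adjusted p = 0.0417), but these calls were lost in 8 and in 6 of 17 alternative settings. At these depths a difference in Skint3 or Skint4 would be hard to detect.

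Levels were compared between members per kilobase of the protein-coding transcript with the longest coding sequence. In untreated skin Skint10 stood first at 108 ± 6.10 CPM per kilobase, followed by Skint2 at 28.5 ± 1.71, Skint1 at 25.6 ± 1.07, Skint6 at 12.6 ± 1.05, Skint5 at 8.73 ± 0.474, Skint7 at 7.58 ± 0.126 and Skint8 at 3.84 ± 0.189 (SD, n = 3 each). Skint9 followed at 0.485 ± 0.0945, Skint4 at 0.0599 ± 0.0134 and Skint3 at 0.0449 ± 0.0150 CPM per kilobase. The order in loaded skin was the same. In empty-microneedle skin Skint1 (23.2 CPM per kilobase) and Skint2 (22.5) changed places, but their libraries overlapped there and in loaded skin, as did those of Skint3 and Skint4 in all 3 groups. Since reads in introns were counted, these levels also hold unspliced RNA.

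The T cells that Skint1 selects carry a receptor built from the segments Trgv5 and Trdv4. Of 16 listed genes of epidermal gamma-delta T cells, 15 were tested. Many of the 15, such as Cd3d, Cd3e, Cd3g and Il2rb, are also expressed by other T cells. Counts over the list thus do not single out the cells that Skint1 selects. In loaded against untreated skin 12 of the 15 were lower and 0 higher (median log2 fold change -0.31), where 23.3% of all tested genes were lower. In loaded against empty skin 7 were lower and 1 higher (median -0.23), where 18.5% of all tested genes were lower. In empty against untreated skin 6 were lower and 1 higher (median -0.19), where 28.1% of all tested genes were lower and 48.3% were called either way. Trdc, the constant segment of the delta chain, averaged 4.12 CPM in loaded, 5.20 CPM in empty and 5.03 CPM in untreated skin. Trdc fell in loaded against untreated skin by 0.29 (adjusted p = 0.00481) and in loaded against empty skin by 0.34 (adjusted p = 0.000900). Trgv5 was lower in loaded than in untreated skin by 0.73 (adjusted p = 0.00319), and Trdv4 by 0.32 (adjusted p = 0.0475), but neither passed in the other comparisons. Both had few counts: Trgv5 averaged 0.570 CPM in loaded, 0.709 CPM in empty and 0.947 CPM in untreated skin. Trdv4 averaged 1.49 CPM in loaded, 1.63 CPM in empty and 1.87 CPM in untreated skin. Of 5 transcription factors linked to Skint1-dependent T cell selection, 3 were higher and 0 lower in loaded than in untreated skin, where 19.0% of all tested genes were higher. Among the 3 were Id3 (0.36, adjusted p = 3.00e-08) and Egr3 (0.21, adjusted p = 9.92e-06), which whole skin also expresses outside T cells. The summed level of the gamma-delta T cell list ranged from 139 to 147 CPM in loaded, 162 to 169 CPM in empty and 166 to 169 CPM in untreated libraries. Most of that sum came from Thy1 and Ahr, which other skin cells also express. Thy1 averaged 55.9 CPM in loaded, 57.9 CPM in empty and 69.4 CPM in untreated skin, and Ahr averaged 45.5 CPM in loaded, 61.7 CPM in empty and 46.0 CPM in untreated skin.

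Keratinocytes also signal to these T cells through other ligands, of which 11 of 12 listed were tested. In loaded against untreated skin 6 were lower and 2 higher (median log2 fold change -0.25). In loaded against empty skin 6 were lower and 1 higher (median -0.20), and in empty against untreated skin 4 were lower and 3 higher (median 0.034). The shares of all tested genes called lower in these comparisons were 23.3%, 18.5% and 28.1%, and called higher 19.0%, 22.9% and 20.2%. H60c, a skin ligand of the activating receptor NKG2D, had 48.4, 46.3 and 49.8 CPM in loaded libraries, 71.7, 71.6 and 72.6 CPM in empty libraries, and 124, 108 and 109 CPM in untreated libraries. H60c had the group order of Skint10, without overlap, and its log2 fold change in loaded against untreated skin was -1.24 (SE 0.043, adjusted p = 1.83e-15). Il15, a cytokine that maintains epidermal T cells, fell by 0.33 in loaded against untreated (adjusted p = 4.46e-05) and by 0.41 in loaded against empty skin (adjusted p = 1.29e-06). Ulbp1, another NKG2D ligand, averaged 8.25 CPM in loaded, 4.63 CPM in empty and 8.55 CPM in untreated skin. It rose by 0.83 in loaded against empty skin (adjusted p = 5.01e-11) and fell by 0.89 in empty against untreated skin (adjusted p = 1.13e-11), and its log2 fold change of -0.052 in loaded against untreated skin did not pass (adjusted p = 0.576). Of 7 tested relatives in the butyrophilin family, a list that includes Skint11, 1 was higher and 1 lower in each comparison. The higher one was Btnl9 (0.72 in loaded against untreated skin, adjusted p = 3.75e-06).

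Several marker lists of the epidermis differed between the same groups. The summed level of the suprabasal keratinocyte list was 27868 to 29611 CPM in loaded, 49827 to 51362 CPM in empty and 40233 to 42079 CPM in untreated libraries. The basal list summed to 10852 to 11328 CPM in loaded, 11570 to 12028 CPM in empty and 14929 to 15643 CPM in untreated libraries. Of 12 tested suprabasal genes, 9 were lower in loaded than in untreated skin, 11 were lower in loaded than in empty skin, and in empty against untreated skin 6 were lower and 5 higher. Of all tested genes, 23.3%, 18.5% and 28.1% were lower in these 3 comparisons, and 20.2% were higher in the last. Most of the lower basal sum against untreated skin came from Krt14, which averaged 3581 CPM in loaded, 4064 CPM in empty and 7223 CPM in untreated skin. Of 10 basal genes, 4 were lower and 1 higher in each comparison of loaded skin, and in empty against untreated skin 3 were lower and 3 higher. These counts are near the shares over all tested genes called either way (42.3%, 41.4% and 48.3%), and the median log2 fold change of the basal list was -0.042 in loaded against untreated, -0.072 in loaded against empty and -0.030 in empty against untreated skin. The 10 genes of the injury keratinocyte list included 9 lower and 0 higher in loaded than in untreated skin, where 23.3% of all tested genes were lower. Among the 9 was Krt6b (-3.34, adjusted p = 5.33e-09), which was also lower in empty than in untreated skin (-1.58, adjusted p = 3.11e-07). Of the same 10 genes, 8 were lower and 1 higher in loaded than in empty skin, where 18.5% of all tested genes were lower. In empty against untreated skin 7 were lower and 1 higher, where 28.1% of all tested genes were lower. All 6 hair shaft and inner root sheath genes were higher in loaded skin than in untreated and in empty skin, where 19.0% and 22.9% of all tested genes were higher. The sum of the 6 hair genes was 20282 to 21584 CPM in loaded, 11560 to 13249 CPM in empty and 17881 to 18137 CPM in untreated libraries. The part of these shifts in the Skint result was not tested.

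**Figure D5:**
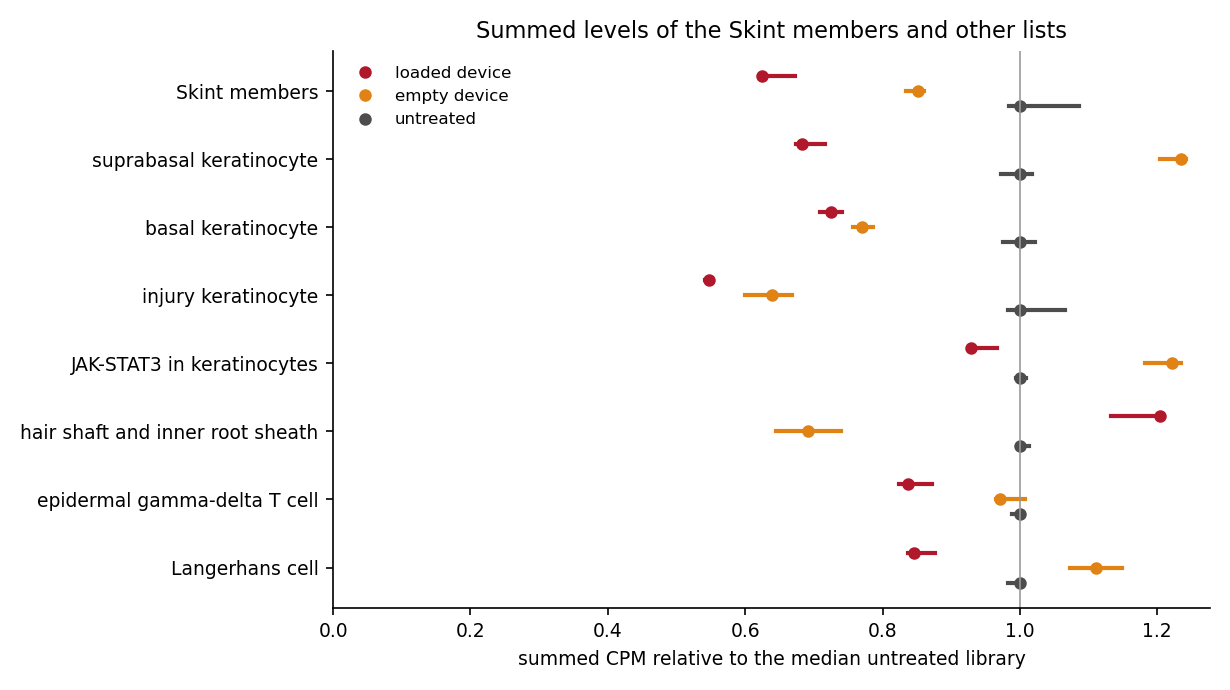
Summed CPM of the Skint genes and of marker lists relative to the median untreated library, on the x axis, with loaded, empty and untreated groups from top to bottom in each list; points are group medians and lines run from the lowest to the highest library. The Skint sum increases in that order (194 to 211, 262 to 270.0 and 309 to 341 CPM), while the suprabasal list is highest and the hair list lowest in empty-microneedle skin.

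Set against single keratins, the group order of the Skint sum depended on the keratin. Per 1000 CPM of Krt5, the Skint sum was 40.4 ± 1.06 in loaded, 53.4 ± 1.75 in empty and 59.4 ± 4.64 in untreated skin (SD, n = 3 each), the order of the sum itself. Per 1000 CPM of Krt10 it was 16.6 ± 0.154 in loaded, 12.1 ± 0.403 in empty and 20.4 ± 1.29 in untreated skin. Per 1000 CPM of Krt14 it was 56.0 ± 2.08 in loaded, 65.6 ± 3.14 in empty and 44.5 ± 1.18 in untreated skin, so loaded skin was then above untreated skin. Krt14 itself was lower in loaded than in untreated skin by 1.01 on the log2 scale (adjusted p = 1.83e-16). Per 1000 CPM of the whole suprabasal list it was 7.01 ± 0.119 in loaded, 5.25 ± 0.160 in empty and 7.79 ± 0.319 in untreated skin, and per 1000 CPM of the basal list 18.1 ± 0.535 in loaded, 22.6 ± 0.707 in empty and 21.0 ± 0.804 in untreated skin. The Skint level was lower in loaded than in untreated skin per Krt5, per Krt10 and per either list, but not per Krt14. Loaded skin was below empty-microneedle skin per Krt5, per Krt14 and per the basal list, and above it per Krt10 and per the suprabasal list.

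Other cell types of skin moved too. Of 6 Langerhans cell markers, 5 were lower in loaded than in untreated skin and 6 in loaded than in empty skin, where 23.3% and 18.5% of all tested genes were lower. In empty against untreated skin 2 were lower and 2 higher, where 48.3% of all tested genes were called either way. The sum of the 6 markers was 656 to 687 CPM in loaded, 841 to 901 CPM in empty and 771 to 786 CPM in untreated libraries, and was carried by Epcam and Cd74, which other cells also express. Cd207, the defining marker, averaged 19.2 CPM in loaded, 30.1 CPM in empty and 34.1 CPM in untreated skin, and fell in all 3 comparisons, by 0.82 in loaded against untreated (adjusted p = 8.41e-15), by 0.64 in loaded against empty (adjusted p = 8.45e-13) and by 0.18 in empty against untreated skin (adjusted p = 0.000627). Cd74 instead was higher in empty than in untreated skin, by 0.41 (adjusted p = 1.21e-10). Of 6 macrophage markers, 6 were lower in loaded than in untreated skin and 5 in loaded than in empty skin. In empty against untreated skin 5 were lower and 1 higher, where 28.1% of all tested genes were lower. The sum of the 6 macrophage markers was 133 to 146 CPM in loaded, 184 to 190.0 CPM in empty and 204 to 217 CPM in untreated libraries. Adipocyte markers summed to 694 to 719 CPM in loaded, 377 to 418 CPM in empty and 644 to 704 CPM in untreated libraries, and skeletal muscle markers to 6139 to 6577 CPM in loaded, 8290 to 9685 CPM in empty and 6563 to 6803 CPM in untreated libraries. The part of these cells in the Skint result was not tested.

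Among genes of JAK-STAT3 signalling in keratinocytes, many were highest in empty-microneedle skin. Of the 12 genes listed, 9 were lower and 0 higher in loaded than in empty skin (median log2 fold change -0.40), where 18.5% of all tested genes were lower. In empty against untreated skin 9 were higher and 1 lower (median 0.22), where 20.2% of all tested genes were higher. In loaded against untreated skin 5 were lower, 1 was higher and 6 did not pass (median -0.11), where 42.3% of all tested genes were called either way. Il20rb, a receptor chain for IL-20 family cytokines, averaged 193 CPM in loaded, 276 CPM in empty and 194 CPM in untreated skin. Stat3 itself averaged 138 CPM in loaded, 184 CPM in empty and 160.2 CPM in untreated skin.

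Of 13882 named genes averaging 1 CPM or more, the 5 whose log2 CPM was most alike to the log2 Skint sum over the 9 libraries were Cyp2j6, Orm1, Ehf, Pex13 and Galnt1, with Pearson r between 0.995 and 0.998. The libraries form 3 groups, so these values mainly describe the order of the groups, and they are given without a test. Ehf, an epithelial ETS family transcription factor, averaged 114 CPM in loaded, 151 CPM in empty and 185 CPM in untreated skin. Cyp2j6, a cytochrome P450, averaged 49.6 CPM in loaded, 63.3 CPM in empty and 73.1 CPM in untreated skin. Orm1, an acute-phase plasma protein, averaged 117 CPM in loaded, 165 CPM in empty and 207 CPM in untreated skin.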

How the data were processed

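Polyadenylated RNA of skin was sequenced in 9 libraries, 3 in each of 3 groups taken from the titles. Per the submitters' processing notes, reads were aligned with HISAT2 to mm39 and counted with featureCounts. Per the file headers, the deposited values are raw counts per gene. Tool versions, annotation, strand setting and the treatment of reads matching several genes: not given in the sources used here. The deposited gene length equalled the whole span for 99.9% of genes, so reads in introns were counted.

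Counts were filtered with filterByExpr (minimum count 10, minimum total 15), leaving genes with 99.96% of all counts, scaled with TMM and tested in R 4.3.3 with edgeR 4.0.16, by its robust quasi-likelihood test, with 1 coefficient per group and all 9 libraries. P-values were adjusted by Benjamini-Hochberg over 26081 genes and called under 0.05; the common biological coefficient of variation was 0.0390. CPM use the TMM-scaled library sizes. The procedure was tested on simulated data. Transcripts came from GENCODE release 21 (GRCm38) and promoters from RefSeq (GRCm38.p6), with alignments in Biopython 1.88. Protein sequences were not used here.

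Members and lists were chosen with earlier results of these data known. The genes named were the members, up to 3 genes with the smallest p of each list, set markers of T cells and keratinocytes, the 5 tested genes nearest to the cluster on each side and the 5 most alike to the Skint sum. Krt6b, Epcam, Gm12813 and Gm12821 were named after their values were seen.  Alternatives were scaling by library size alone, by upper quartile or by DESeq2 1.42.0 size factors, no filter, a filter at 1 CPM, the DESeq2 Wald test, a fit without the robust option, a fit of the compared groups alone, a replicate block and each library left out.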

Additional observations from a re-analysis of the deposited data

How the results depend on the processing

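Skint1, Skint2, Skint5, Skint6, Skint7, Skint8 and Skint10 kept their direction and call in both comparisons of loaded skin under all 18 alternatives. In empty against untreated skin the number of members called was 4, not 8, with scaling by library size alone, with upper quartile scaling, with a filter at 1 CPM and with the DESeq2 Wald test, and 5 to 8 when 1 library was left out. Skint2 and Skint10 kept their calls there under all 18. Library size alone moved the median of all genes by 0.13 in loaded against untreated skin and 0.10 in empty against untreated skin, and gave Skint sums with log2 ratios of -0.55 and -0.17. The share of higher calls was then 68.1%, not 44.9%, in loaded against untreated skin, and 57.9%, not 41.7%, in empty against untreated skin (53.0% with the upper quartile). With the upper quartile it was 44.4%, not 55.3%, in loaded against empty skin.

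With 1 library left out, Skint3 ranged from -0.47 to 0.20 in loaded against untreated and from -0.047 to 0.62 in empty against untreated skin, and Skint4 from -0.15 to 0.20 in loaded against untreated skin. The cause was not tested. Same-numbered libraries deviated with correlations from -0.10 to 0.096, and differently numbered ones from -0.093 to 0.089. No pairing by number was thus detected, though 3 libraries per group could miss one. With the replicate as a block, 8 members were called in loaded against untreated, 7 in loaded against empty (Skint4 was lost, adjusted p = 0.0533) and 8 in empty against untreated skin. Few counts limit Skint3, Skint4 and Skint9.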
